A study of Homo sapiens with 4 samples.

Results

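The endothelin system was examined after knockdown of RALY, an hnRNP family protein that binds RNA, in the human colorectal carcinoma line HCT116. The 6 genes are the ligand genes EDN1 and EDN2, the receptor genes EDNRA and EDNRB, and the endothelin-converting enzyme genes ECE1 and ECE2. They were taken by symbol from the 58884 genes of the deposited tables, and the system was chosen by its log2 fold changes and calls in this same contrast. The differences of the 6 genes between the groups are therefore a description and carry no test of their own. Knockdown cells, in 2 libraries, had received lentivirus with a short hairpin RNA against RALY. Control cells, in 2 libraries, are covered by a protocol that names a nonsilencing hairpin virus, while other labels call them untreated or wild type. The protocol gives 72 h of virus treatment. No label gives the hairpin sequence, a clone or separate cultures, and a source label numbers the cell line differently for the second library of each group. A p-value here therefore reflects how far the libraries of a group differ, and that difference may be technical.

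Endothelins are short vasoactive peptides cut in steps out of a longer precursor. Furin-type convertases first release an inactive intermediate, big endothelin, and the membrane metalloproteases ECE1 and ECE2 then cut it to the active peptide. The peptides act on the G protein-coupled receptors EDNRA and EDNRB, which signal largely through Gq proteins and phospholipase C beta to calcium. Endothelial cells are the best known source of EDN1, and colorectal cancer cells are also known to secrete it and to respond to it through EDNRA. EDNRB is best known in this organ from the enteric nervous system, whose precursor cells need it to colonise the gut.

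The coding sequence of the mature peptide shows how alike the ligands are and where they can be told apart. Both stretches lie in exon 2 of 5 of the canonical GENCODE release 44 transcript on GRCh38, at chr6:12292433-12292495 on the plus strand for EDN1 and chr1:41484061-41484123 on the minus strand for EDN2. They are read 5′ to 3′ on the coding strand, and capitals mark the 12 of 63 bases that differ between the genes.
EDN1: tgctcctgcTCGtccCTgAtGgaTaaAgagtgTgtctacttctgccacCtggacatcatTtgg
EDN2: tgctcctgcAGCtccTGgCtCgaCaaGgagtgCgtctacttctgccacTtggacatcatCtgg
The stretches were 81.0% identical and their translations differed at 2 of 21 residues. Over the whole canonical transcripts, the longest run of bases shared without a mismatch was 15 between EDN1 and EDN2, 13 between EDNRA and EDNRB, and 20 between ECE1 and ECE2.

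The windows before the transcript starts of EDN1 and EDN2 are shown because these are the 2 genes of the system whose levels were higher after knockdown. Each holds the 250 bases before the start, 5′ to 3′ in the direction of transcription, from RefSeq on GRCh38.p14. They lie at chr6:12290111-12290360 on the plus strand for EDN1, where RefSeq has 3 starts and the one at the canonical GENCODE start was taken, and at chr1:41484684-41484933 on the minus strand for EDN2. Capitals mark matches to the motifs searched.
EDN1: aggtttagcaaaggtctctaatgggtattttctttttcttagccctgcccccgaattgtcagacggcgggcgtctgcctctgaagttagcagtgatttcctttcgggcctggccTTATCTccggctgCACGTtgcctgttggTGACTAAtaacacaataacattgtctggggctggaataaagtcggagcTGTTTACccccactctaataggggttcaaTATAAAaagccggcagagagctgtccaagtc
EDN2: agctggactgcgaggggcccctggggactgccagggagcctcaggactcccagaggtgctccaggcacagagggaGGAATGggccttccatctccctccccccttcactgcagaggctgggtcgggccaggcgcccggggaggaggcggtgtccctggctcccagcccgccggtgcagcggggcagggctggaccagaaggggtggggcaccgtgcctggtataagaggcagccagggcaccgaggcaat
The letter patterns below were searched on both strands, and none of the matches in the EDN1 window overlapped another. The EDN1 window held AGATAA, the GATA factor pattern, 136 to 131 bases before the start on the opposite strand. ACGTG, the core bound by hypoxia-inducible factors, lay 123 to 119 bases before the start, also on the opposite strand, and TGACTAA, a variant of the AP-1 site, lay at 108 to 102. TGTTTAC, the FOXO core, lay at 60 to 54 and TATAAA, the TATA box, at 31 to 26. Of 27305 promoter windows of the same length, 1 for each gene, 9.37% held AGATAA, 18.7% ACGTG, 1.66% TGACTAA, 2.98% TGTTTAC and 11.1% TATAAA. The AP-1 consensus TGANTCA, in 6.60% of windows, and the SMAD palindrome GTCTAGAC, in 0.176%, had no match in the EDN1 window. Shorter SMAD patterns were not searched, so a miss of this rare palindrome does not show that the window lacks a SMAD site. The EDN2 window held 1 match, to the TEAD pattern GGAATG, which 11.9% of windows hold. The EDNRB window held ACGTG at 2 places and GGAATG once, and the windows of EDNRA and ECE1 held none of the patterns. RefSeq has 2 starts for EDNRB and 4 for ECE1, and only the window at the canonical GENCODE start was searched. ECE2 had no window and was not searched. A match describes the letters in the window and not the binding of a factor.

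**Figure D1:**
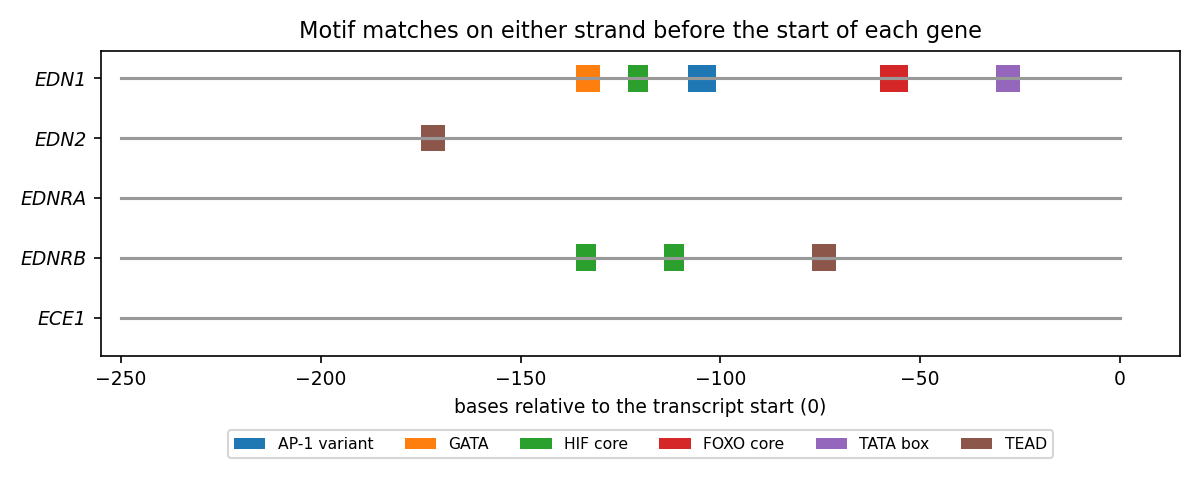
Position of motif matches on either strand in the 250 bases before the start of EDN1, EDN2, EDNRA, EDNRB and ECE1 (horizontal axis, bases relative to the transcript start; each bar spans 1 match). EDN1 has 5 matches between 136 and 26 bases before its start, EDN2 has 1, EDNRB has 3, and EDNRA and ECE1 have none. Only the window at the canonical start of each gene is shown, and ECE2 had no window.

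Library totals ran from 14762755 to 16493967 counts in the knockdown and from 13360007 to 16847520 in the controls. RALY had 634 and 522 counts in the knockdown libraries, against 1903 and 2132 in the controls (log2 fold change -1.84, SE 0.13, edgeR quasi-likelihood adjusted p = 6.59e-06). CPM below are counts scaled to 1000000 with TMM-scaled totals, a gene is called at an edgeR adjusted p under 0.05 over all genes tested, and log2 fold changes are RALY knockdown over control. Of 19686 genes tested, 25.6% were called, 12.5% higher and 13.1% lower, with a median log2 fold change of 0.01. Of 10 listed epithelial markers, KRT8 had 198 and 189 CPM on average in knockdown and control. EPCAM had 113 and 113 CPM in the knockdown libraries against 136 and 113 CPM in the controls. CDX1 and CEACAM5 were almost without counts in these cells, with 0 to 3 in any library, and VIL1 had 11 to 14. Of the 8 tested epithelial markers, CDX2 alone was called, with 27.1 and 25.9 CPM in the knockdown against 37.7 and 35.6 CPM in the controls (edgeR adjusted p = 0.0311, and 0.214 and 0.16 without control replicate 1 and 2).

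Within the endothelin system the 2 ligand genes were higher after RALY knockdown, while EDNRA, ECE1 and ECE2 were not called and EDNRB had no counts. Of the 6 genes, 5 passed the filter on low counts, EDNRB did not, 2 were called higher and 0 lower. Nothing is read from that count against the 25.6% of all genes, since the contrast chose the genes. In these bulk libraries, fewer cells expressing a gene and less RNA of it per cell cannot be told apart.

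EDN1 (ENSG00000078401), which encodes the precursor of endothelin-1, lies on chromosome 6 at positions 12290361 to 12297194 on the plus strand of GRCh38 and shares no exon base with another gene. It had 221 and 303 counts in the knockdown libraries, against 24 and 45 in the controls. The corresponding levels were 13.8 and 20.4 CPM in the knockdown, against 1.82 and 2.60 CPM in the controls. Both knockdown libraries stood far above both controls, and the 2 knockdown libraries differed by more CPM than the whole control level. The mean was 17.1 ± 4.66 CPM in the knockdown and 2.21 ± 0.554 CPM in the controls (SD, n = 2 each), a 7.60-fold difference (log2 fold change 2.93, SE 0.29). With 1 library left out at a time it stayed between 2.61 and 3.21. EDN1 ranked 67 of the 19686 tested genes by log2 fold change, from the highest, while 35.8% of tested genes had a lower mean level.

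EDN2 (ENSG00000127129), which encodes the precursor of endothelin-2, lies on chromosome 1 at positions 41478775 to 41484683 on the minus strand. It was scarcely detected, with 12 and 18 counts in the knockdown libraries and 1 and 4 in the controls. Its level was 0.749 and 1.21 CPM in the knockdown, against 0.0758 and 0.231 CPM in the controls, and both knockdown libraries stood above both controls. It passed the filter on low counts only through the knockdown libraries, so a difference was built into its passing. The summed 30 counts in the knockdown and 5 in the controls gave a ratio of 5.92 after scaling. Its 95% interval of 2.27 to 19.5 covers counting error only. Since the contrast on these same counts chose the gene, the interval is a description and no test of a difference. The fitted log2 fold change was 2.52 (SE 0.65). The gene was no longer called without control replicate 1, control replicate 2 or knockdown replicate 2, and without control replicate 2 the log2 fold change was 3.53. EDN3, the gene of the third ligand, had 1 count in 1 knockdown library and 0 in the other libraries and was not tested.

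**Figure D2:**
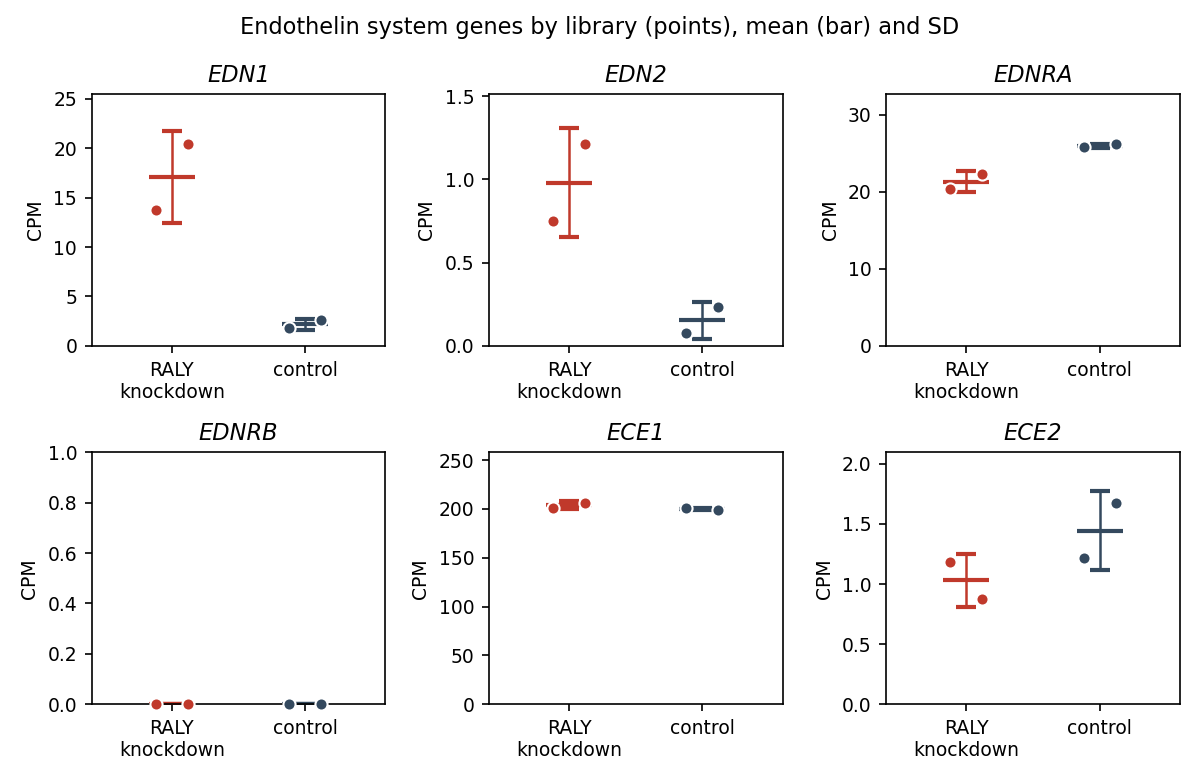
Level of each of the 6 endothelin system genes in CPM (vertical axes, each from 0) in RALY knockdown (left) and control (right); points are the 2 libraries of a group, wide bars the mean and thin bars the SD. EDN1 and EDN2 have both knockdown libraries above both controls, ECE1 is at about 200 CPM in every library, and EDNRB has no count in any.

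EDNRA (ENSG00000151617), the receptor through which endothelin-1 mainly acts on smooth muscle, lies on chromosome 4 at positions 147480917 to 147544954 on the plus strand and was the only endothelin receptor detected. It had 326 and 331 counts in the knockdown libraries, against 340 and 452 in the controls, or 20.3 and 22.3 CPM against 25.8 and 26.1 CPM. Both knockdown libraries lay slightly below both controls. Its mean was 21.3 ± 1.36 CPM in the knockdown and 26.0 ± 0.267 CPM in the controls (SD, n = 2 each; log2 fold change -0.29, SE 0.16), and it was not called. EDNRB (ENSG00000136160), on chromosome 13 at positions 77895481 to 77975529 on the minus strand, had 0 counts in each of the 4 libraries. A count of 0 allows up to 3 counts, or 0.187 and 0.202 CPM in the knockdown libraries and 0.227 and 0.174 CPM in the controls. At this depth EDNRB was therefore at or below these limits in both groups, and no fold is given. The antisense gene EDNRB-AS1 had 1 and 0 counts in the knockdown libraries and 0 and 1 in the controls. OBI1-AS1, which shares 1.43% of the exon bases of EDNRB on the opposite strand, had 0 and 4 counts in the knockdown libraries and 1 and 0 in the controls.

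ECE1 (ENSG00000117298), the main converting enzyme, lies on chromosome 1 at positions 21217247 to 21345572 on the minus strand and was by far the most abundant gene of the system. It had 3218 and 3070 counts in the knockdown libraries, against 2652 and 3438 in the controls, or 201 and 206 CPM against 201 and 199 CPM. The groups overlapped, and the log2 fold change was 0.03 (SE 0.11). The 200 most-counted genes had a median of 0.812 counts per base of their canonical transcript and at most 3.04, so counts of abundant genes could be levelling off. The mean count of ECE1 filled 30.5% of 2 start positions per transcript base, against 3.64% for EDN1 and 4.56% for EDNRA, and a correction for such levelling off left ECE1 at 0.02 on the log2 scale. The highest value of 3.04 lies above the 2 start positions assumed, so the correction cannot show whether counts levelled off. ECE1-AS1, an antisense gene that shares 3.28% of the exon bases of ECE1, had 2 to 4 counts in each library.

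ECE2 (ENSG00000145194), a second converting enzyme that works at acidic pH, lies on chromosome 3 at positions 184276011 to 184293031 on the plus strand. It had 19 and 13 counts in the knockdown libraries, against 16 and 29 in the controls. These are 1.19 and 0.874 CPM in the knockdown, against 1.21 and 1.68 CPM in the controls, so the groups came close without overlapping. The log2 fold change was -0.50 (SE 0.41) and was not called. Counts of ECE2 are uncertain, because 62.7% of its exon bases also belong to the readthrough gene EEF1AKMT4-ECE2. That gene had 192 and 173 counts in the knockdown libraries and 179 and 257 in the controls (log2 fold change -0.27, SE 0.20, edgeR adjusted p = 0.353). Libraries of the groups were fully separated in 4 of the 5 tested genes, 2 of them higher and 2 lower after knockdown. The shares over all tested genes were 63.6% in either direction, 32.3% higher and 31.3% lower.

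**Figure D3:**
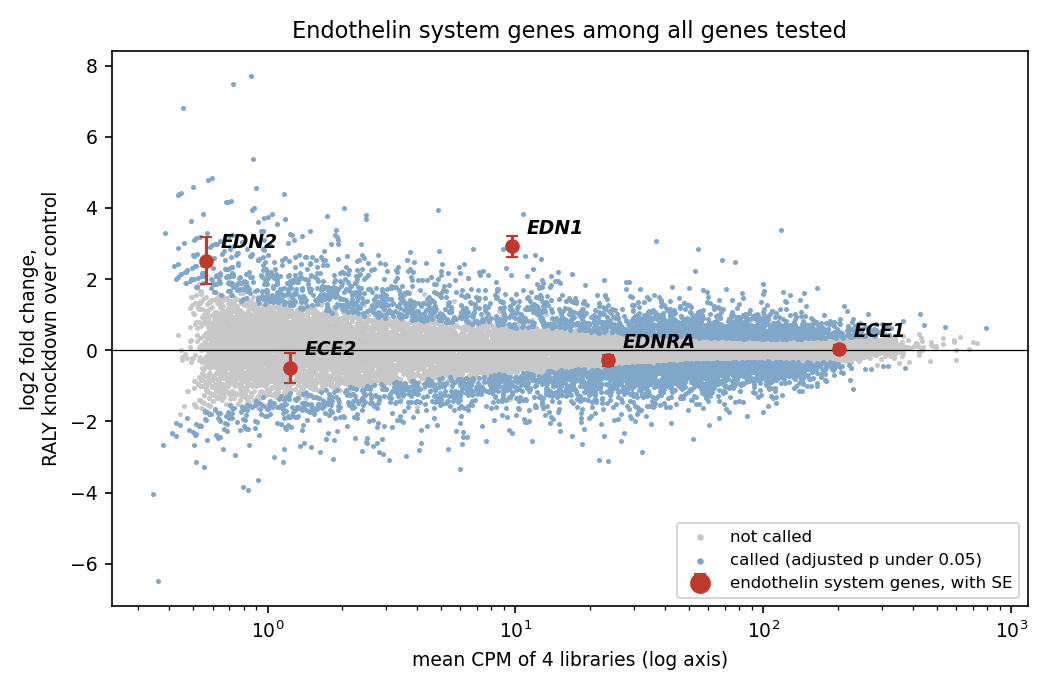
Log2 fold change, RALY knockdown over control (vertical axis), against the mean CPM of the 4 libraries (horizontal log axis) for the 19686 genes tested; blue points are called, grey points are not, and red points with SE bars are the 5 tested endothelin system genes. EDN1 and EDN2 lie at 2.93 and 2.52, and EDNRA, ECE1 and ECE2 lie between -0.50 and 0.03.

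Levels of different genes were compared per kilobase of exon, as RPKM (CPM divided by exon length in units of 1000 bases). In the knockdown libraries the order was ECE1 at 27.5 and 28.2 RPKM, EDN1 at 6.78 and 10.0, EDNRA at 4.80 and 5.25, EDN2 at 0.454 and 0.734, and ECE2 at 0.251 and 0.185. In the controls the order was ECE1 at 27.5 and 27.2 RPKM, EDNRA at 6.08 and 6.17, EDN1 at 0.894 and 1.28, ECE2 at 0.256 and 0.355, and EDN2 at 0.0460 and 0.140. EDNRB, without a count, was last in both. No neighbours in either order overlapped between the 2 libraries of a group, though the order of EDN2 and ECE2 rests on few counts. It also rests on the full exon length of ECE2, of which 62.7% is shared with EEF1AKMT4-ECE2. The place of ECE2 relative to EDN2 is therefore uncertain in both groups. EDN1 thus stood above EDNRA in both knockdown libraries and below it in both controls. The ratio of EDN1 to EDNRA in RPKM was 1.41 and 1.91 in the knockdown, against 0.147 and 0.207 in the controls. The ratio of ECE1 to EDN1 was 4.05 and 2.82 in the knockdown, against 30.8 and 21.3 in the controls. EDN1 made up 93.7% and 93.2% of the summed RPKM of EDN1 and EDN2 in the knockdown, against 95.1% and 90.1% in the controls, so this share did not separate the groups.

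Most markers of other cell types in which endothelin genes are known were near the limit of detection, with COL1A1, PDGFRB and PMEL as the most abundant exceptions (chosen after their values were seen). Of 10 endothelial markers, 3 passed the filter and 0 were called by edgeR or by DESeq2, with 1 at an unadjusted p under 0.05. The level summed over the list was 11.9 and 9.55 CPM in the knockdown, against 10.9 and 11.3 CPM in the controls. EDN1 alone had 13.8 and 20.4 CPM in the knockdown, against 1.82 and 2.60 CPM in the controls. CLDN5, which encodes an endothelial tight junction protein, had 0 counts in all libraries. CDH5, the gene of the endothelial cadherin, had 0.499 and 0.672 CPM in the knockdown, against 0.455 and 0.347 CPM in the controls. TEK, TIE1, ROBO4 and ERG also had both knockdown libraries above both controls in CPM (chosen after their values were seen). Their counts were low and they were not tested. Of all genes tested, 32.3% had both knockdown libraries higher. VWF, the most abundant marker of the list, overlapped between the groups and was not called (log2 fold change 0.09, edgeR adjusted p = 0.879). EMCN overlapped too, with 2 and 1 counts in the knockdown libraries, against 1 and 4 in the controls. TEK had 9 and 14 counts in the knockdown libraries, against 5 and 5 in the controls, and TIE1 had 10 and 7, against 5 and 6. KDR, a receptor for vascular endothelial growth factor, was at -0.85 on the log2 scale and not called (edgeR adjusted p = 0.0648). It was called lower without knockdown replicate 2 (-1.23, edgeR adjusted p = 0.00643), with the replicate block (edgeR adjusted p = 0.00913) and with no filter (edgeR adjusted p = 0.0396). PECAM1, an endothelial adhesion protein gene, was at 0.45 (edgeR adjusted p = 0.538). Of 10 fibroblast and smooth muscle markers, 5 were tested and CNN1, a smooth muscle calponin gene, was called lower. CNN1 had 1.44 and 0.672 CPM in the knockdown, against 3.87 and 2.78 CPM in the controls (log2 fold change -1.63, edgeR adjusted p = 0.0123). CNN1 lost its call without control replicate 1 or 2 (adjusted p of edgeR 0.169 and 0.0932), and it was at -2.30 without knockdown replicate 1. The summed level of that list was 111 and 140 CPM in the knockdown, against 138 and 161 CPM in the controls, most of it COL1A1. The other tested genes of the list were not called (chosen after their values were seen). PDGFRB lay higher, with 21.3 and 20.4 CPM in the knockdown, against 15.2 and 15.3 CPM in the controls (log2 fold change 0.46, edgeR adjusted p = 0.0797). COL1A1, MYH11 and DES were at -0.34, -0.90 and -0.18 on the log2 scale. Whether these markers have a part in the EDN1 difference was not tested. Of 8 melanocyte and Schwann lineage markers, 3 were tested, of which PMEL, a melanosome protein gene and the most abundant, was not called (edgeR adjusted p = 0.487). PMEL had 16.8 and 27.2 CPM in the knockdown, against 17.0 and 20.3 CPM in the controls, so the groups overlapped. The summed level of that list was 28.9 and 36.5 CPM in the knockdown, against 33.9 and 38.6 CPM in the controls.

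Genes around the system were taken from 5 lists by role, 101 genes in all, of which 70 were tested, 14 were called higher and 10 lower. These shares of 20.0% and 14.3% stand beside 12.5% and 13.1% of all genes tested, and the median log2 fold change was 0.07 against 0.01. All 24 called genes kept their direction with any 1 library left out. Only 7 of them were still called without control replicate 1 and 9 without control replicate 2, against 23 without knockdown replicate 1 and 23 without knockdown replicate 2. Leaving out a control leaves the spread to the knockdown pair, whose counts lay further apart (chi-square over its degrees of freedom 10.2 in the knockdown pair and 5.39 in the control pair).

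Upstream of the converting enzymes, the convertases that make the first cut in the precursor were lower where they were called. Of 7 proprotein convertase genes, 5 were tested and 2 fell, with a median log2 fold change of -0.48. Over all genes tested, 13.1% were called lower, and nothing is read from a count of so few genes. FURIN, the convertase best known for this step, had 76.4 and 87.2 CPM in the knockdown, against 121 and 127 CPM in the controls (log2 fold change -0.60, SE 0.11, edgeR adjusted p = 0.00275). PCSK6, a relative that also cuts TGF-beta family precursors, had 19.3 and 15.2 CPM in the knockdown, against 51.2 and 50.6 CPM in the controls (log2 fold change -1.56, SE 0.16, edgeR adjusted p = 6.30e-05). Both knockdown libraries lay below both controls for either gene, as they did in 31.3% of all genes tested. FURIN was not called without control replicate 2 (edgeR adjusted p = 0.0653). PCSK7 was at 0.36 and not called (edgeR adjusted p = 0.0541; chosen after its value was seen).

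The relatives of ECE1 and ECE2 in the M13 family of metalloproteases, listed together with EDN3, were scarce. Of these 6 genes 3 were tested and 0 were called by edgeR or by DESeq2, with 2 at an unadjusted p under 0.05. PHEX, a peptidase known from phosphate balance in bone, had 14 and 17 counts in the knockdown libraries, against 23 and 45 in the controls (log2 fold change -1.12, SE 0.40, edgeR adjusted p = 0.0557). MMEL1, a close relative of neprilysin, had 41 and 44 counts in the knockdown, against 66 and 72 in the controls (log2 fold change -0.73, SE 0.29, edgeR adjusted p = 0.0862). Both were called lower with the replicate number as a block (edgeR adjusted p = 0.0146 and 0.032), and PHEX also with no filter on low counts and without knockdown replicate 2 (edgeR adjusted p = 0.0401 and 0.0336). MME, which encodes neprilysin, an enzyme that degrades endothelins, had 7 and 6 counts in the knockdown libraries and 1 and 1 in the controls and did not pass the filter.

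Downstream of the receptors, 29 of 30 signalling genes were tested, 3 rose and 5 fell, with a median log2 fold change of 0.01. The shares over all genes tested were 12.5% higher and 13.1% lower, and nothing is read from the count for this list. The 2 largest log2 fold changes by size were falls, in GRK6 and ARRB1. GRK6, a kinase that desensitises G protein-coupled receptors, had 36.1 and 32.2 CPM in the knockdown, against 109 and 104 CPM in the controls (log2 fold change -1.64, SE 0.12, edgeR adjusted p = 1.02e-05). ARRB1, which encodes the desensitising protein beta-arrestin 1, had 28.4 and 27.4 CPM in the knockdown, against 73.6 and 84.9 CPM in the controls (log2 fold change -1.51, SE 0.13, edgeR adjusted p = 3.22e-05). In both genes the groups lay far apart relative to the spread within them. ARRB2, the gene of beta-arrestin 2, had 113 and 105 CPM in the knockdown, against 117 and 99.4 CPM in the controls, and was not called (log2 fold change 0.01, edgeR adjusted p = 0.965; chosen after its value was seen). GRK2, the kinase first described for the beta-adrenergic receptor, fell too (log2 fold change -0.57, edgeR adjusted p = 0.00516). The other receptor kinases of the list, GRK3 and GRK5, were at 0.23 and 0.21 and not called (edgeR adjusted p = 0.189 and 0.366; chosen after their values were seen). Among the transducers, PLCB3, a phospholipase C activated by Gq, had 105 and 94.3 CPM in the knockdown, against 211 and 189.6 CPM in the controls (log2 fold change -1.01, SE 0.12, edgeR adjusted p = 0.000167). GNA11, a Gq family alpha subunit, fell (log2 fold change -0.64, edgeR adjusted p = 0.00332), while its close relative GNAQ was at 0.23 and not called (edgeR adjusted p = 0.138; chosen after its value was seen). RGS4, which shortens Gq and Gi signals, had 11.7 and 13.6 CPM in the knockdown, against 4.02 and 5.84 CPM in the controls (log2 fold change 1.35, SE 0.25, edgeR adjusted p = 0.00265). The other 2 higher genes, named after their values were seen, were PLCB1 at 0.61 and the calcium release channel gene ITPR1 at 0.48 on the log2 scale. Calls of GRK6, ARRB1 and PLCB3 were kept with any 1 library left out. RGS4 was not called without control replicate 1 (edgeR adjusted p = 0.0978). GNA11, GRK2, PLCB1 and ITPR1 lost their calls on leaving out either control (in that order, edgeR adjusted p = 0.0666, 0.073, 0.136 and 0.337 without control replicate 1, and 0.0573, 0.0515, 0.0761 and 0.0713 without control replicate 2).

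Of 23 genes whose products are known to act on the EDN1 promoter, mostly from endothelial cells, 22 were tested. Of these, 10 rose and 1 fell, with a median log2 fold change of 0.37, beside 12.5% higher and 13.1% lower over all genes tested. The list was chosen with earlier results of these data known, so its count carries no test. Members of AP-1, the dimer of FOS and JUN family proteins, had the 4 largest log2 fold changes of the list. FOSL1 and JUNB were at 0.26 and 0.41 and JUND lay lower at -0.33. None of them was called (edgeR adjusted p = 0.15, 0.0736 and 0.0586, in that order, chosen after their values were seen). FOSB had 46.4 and 54.9 CPM in the knockdown, against 17.1 and 19.7 CPM in the controls (log2 fold change 1.45, SE 0.16, edgeR adjusted p = 8.49e-05). FOSL2 had 136 and 141 CPM in the knockdown, against 49.6 and 75.0 CPM in the controls (log2 fold change 1.15, SE 0.16, edgeR adjusted p = 0.000462). JUN had 102 and 139 CPM in the knockdown, against 52.1 and 73.2 CPM in the controls, and FOS had 58.3 and 93.6 CPM in the knockdown, against 29.5 and 40.4 CPM in the controls. In FOSB, FOSL2, JUN and FOS both knockdown libraries stood above both controls, as they did in 32.3% of all genes tested. The log2 fold changes were 0.94 for JUN and 1.11 for FOS (edgeR adjusted p = 0.00221 and 0.00235). KLF4, a zinc finger factor, and EP300, a histone acetyltransferase and coactivator, rose with log2 fold changes of 0.65 and 0.57 (edgeR adjusted p = 0.00469 and 0.00571). The other called genes, named after their values were seen, were SMAD3 at 0.42, GATA6 at 0.73, HIF1A at 0.40 and VEZF1 at 0.35 on the log2 scale, and ARNT, the dimer partner of HIF1A, which was lower at -0.53. GATA2, a GATA factor known to act on this promoter, was at 0.39 and not called (edgeR adjusted p = 0.075; chosen after its value was seen). FOSB and FOSL2 kept their calls with any 1 library left out. JUN and KLF4 were not called without control replicate 1 (edgeR adjusted p = 0.0935 and 0.127). FOS and EP300 were not called without control replicate 1 (edgeR adjusted p = 0.108 and 0.0746) or control replicate 2 (edgeR adjusted p = 0.0509 and 0.0774), and 2 genes of the list were called higher without control replicate 1 and 4 without control replicate 2. SMAD3, GATA6, HIF1A, VEZF1 and ARNT, in that order, had edgeR adjusted p = 0.0953, 0.168, 0.0882, 0.188 and 0.0624 without control replicate 1, and 0.132, 0.108, 0.173, 0.149 and 0.12 without control replicate 2. HIF1A also lost its call without knockdown replicate 2 (edgeR adjusted p = 0.0529), and VEZF1 without knockdown replicate 1 and with no filter (edgeR adjusted p = 0.0666 and 0.0544).

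Of 35 genes of other vasoactive peptides and their receptors, 11 were tested, 1 rose and 2 fell, with a median log2 fold change of -0.01. Nothing is read from that count, since 12.5% of all genes tested were called higher and 13.1% lower. The called genes were ADM, which was higher, and CALCRL and ADM2, which were lower, and no common theme is read from them. RAMP1, RAMP2 and RAMP3 of the same list had 3 counts or fewer in every library and were not tested (chosen after their values were seen). ADM, whose product is a vasodilator peptide, had 25.9 and 36.0 CPM in the knockdown, against 12.1 and 12.7 CPM in the controls (log2 fold change 1.32, SE 0.20, edgeR adjusted p = 0.000718). CALCRL, which encodes the receptor subunit for adrenomedullin, had 4.49 and 4.44 CPM in the knockdown, against 7.35 and 10.1 CPM in the controls (log2 fold change -0.97, SE 0.26, edgeR adjusted p = 0.017). ADM2, the gene of a related peptide, had 11.7 and 17.8 CPM in the knockdown, against 18.9 and 31.6 CPM in the controls (log2 fold change -0.78, SE 0.26, edgeR adjusted p = 0.0428). In all 3 genes the groups did not overlap. ADM, CALCRL and ADM2 were not called without control replicate 1 (edgeR adjusted p = 0.051, 0.0731 and 0.0692) or control replicate 2 (edgeR adjusted p = 0.0509, 0.23 and 0.502). ADM2 was also not called with DESeq2 size factors, plain library totals or saturation-corrected counts (edgeR adjusted p = 0.0613, 0.0735 and 0.06).

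**Figure D4:**
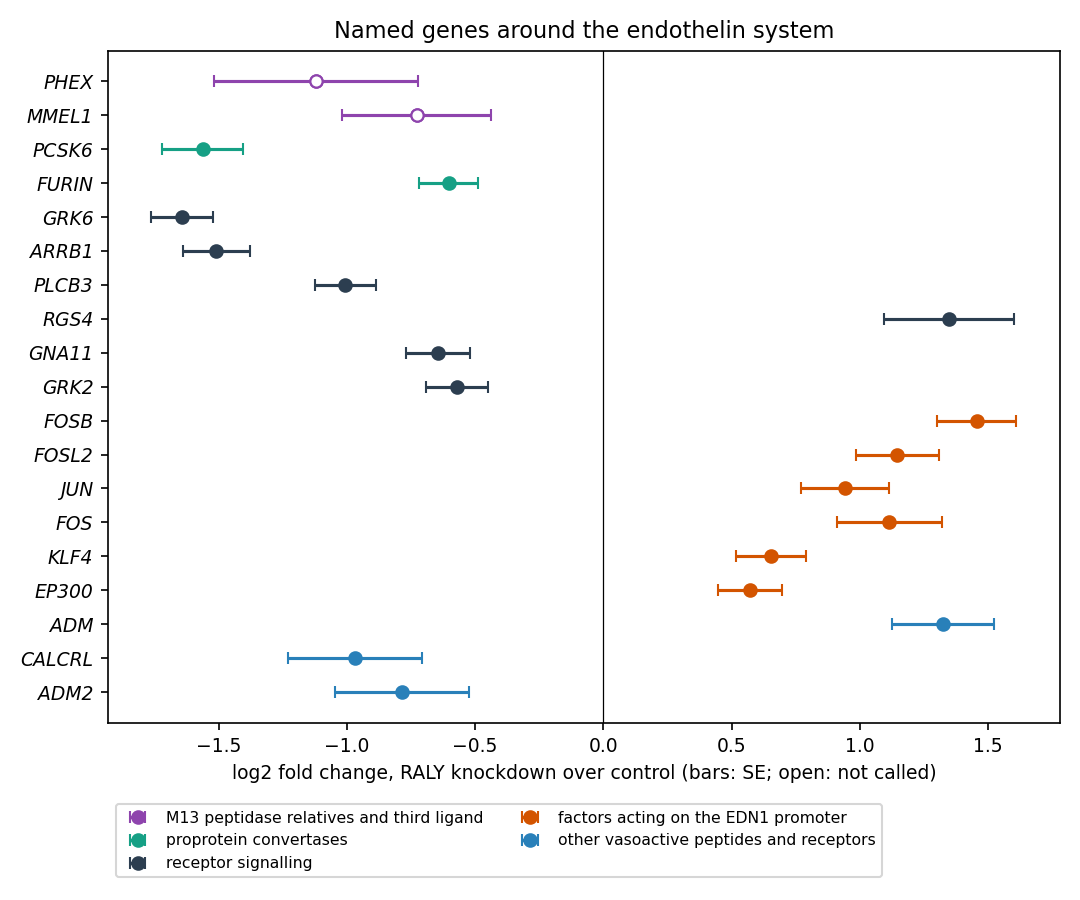
Log2 fold change, RALY knockdown over control, with SE (horizontal axis) for named genes of the 5 lists around the endothelin system (rows, coloured by list); filled points are called, open points are not. GRK6, PCSK6 and ARRB1 lie lowest at -1.64, -1.56 and -1.51, and FOSB, RGS4 and ADM lie highest at 1.45, 1.35 and 1.32.

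The nearest protein-coding gene on either side of each of the 6 genes was also examined. Beside EDN1, HIVEP1, a zinc finger gene 125362 bases away, had 44.4 and 51.8 CPM in the knockdown, against 30.3 and 36.2 CPM in the controls (log2 fold change 0.53, SE 0.15, edgeR adjusted p = 0.0202). On the other side PHACTR1, 419611 bases away, had 1 and 0 counts in the knockdown libraries and 0 and 1 in the controls. Beside EDN2, HIVEP3, a paralog of HIVEP1 21682 bases away, had 104 and 105 CPM in the knockdown, against 59.8 and 81.9 CPM in the controls (log2 fold change 0.56, SE 0.14, edgeR adjusted p = 0.0122). FOXO6, 95185 bases away on the other side of EDN2, was at -0.68 and not called (edgeR adjusted p = 0.0993). HIVEP1 lost its call without control replicate 1 or 2 (edgeR p adjusted to 0.283 and 0.101), and HIVEP3 without control replicate 1 (edgeR adjusted p = 0.211). FOXO6 was called lower with the replicate block, with no filter and without knockdown replicate 2 (edgeR adjusted p = 0.0016, 0.0121 and 1.61e-05), and was at -1.25 without that library. Beside ECE1, NBPF3, a member of a multigene family whose counts are uncertain, was lower (log2 fold change -0.87, edgeR adjusted p = 0.00139, and 0.0603 without control replicate 2), while EIF4G3 was at -0.02 (edgeR adjusted p = 0.912). Beside EDNRA, TMEM184C was at 0.07 (edgeR adjusted p = 0.669) and TTC29 had 5 counts or fewer in every library. Beside ECE2, PSMD2 and CAMK2N2 had log2 fold changes of -0.04 and -0.61 and were not called (edgeR adjusted p = 0.869 and 0.0966), though CAMK2N2 was called with the replicate block and without knockdown replicate 2 (edgeR adjusted p = 0.0147 and 0.00388). SLAIN1 and POU4F1, beside EDNRB, had 2 counts or fewer in every library.

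Genes with the profile most like that of EDN1 were found by the Euclidean distance between log2 CPM values over the 4 libraries, each gene centred on its own mean, among 12411 other protein-coding genes whose mean level reached 5 CPM. Of the 8 nearest, 7 are described here, ENC1, SMAD7, DCLK1, CCN2, SLC2A3, GABRR2 and PKD1L1, at distances of 0.36 to 0.61. ENC1, an actin-binding protein gene, had 16.1 and 25.7 CPM in the knockdown, against 2.20 and 4.17 CPM in the controls. SMAD7, an inhibitory SMAD gene, had 63.9 and 68.0 CPM in the knockdown, against 5.91 and 9.55 CPM in the controls. The others encode the kinase DCLK1, the matrix protein CCN2, the glucose transporter SLC2A3, the GABA receptor subunit GABRR2 and the polycystin family protein PKD1L1. Log2 fold changes of these 7 genes lay between 2.35 for GABRR2 and 3.37 for SLC2A3. The likeness rests on 4 libraries and on the same contrast, so it describes the profiles and carries no test.

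**Figure D5:**
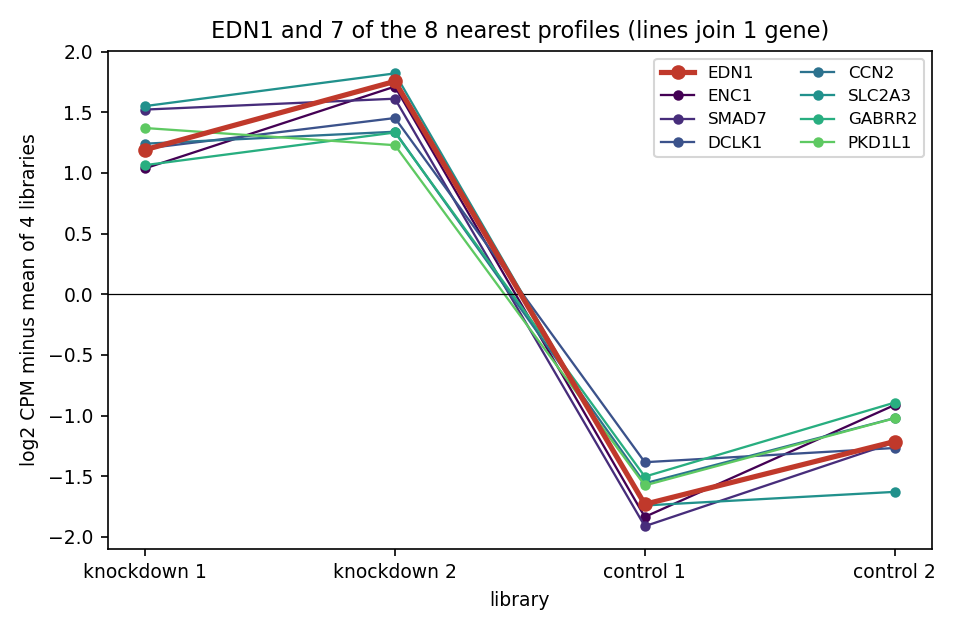
Log2 CPM minus the mean of the 4 libraries (vertical axis) in each library (horizontal axis, RALY knockdown left, control right) for EDN1 (thick red line) and 7 of the 8 protein-coding genes nearest to it; lines join values of 1 gene. All 8 profiles shown are high in both knockdown libraries and low in both controls, and all but PKD1L1 are higher in the second library of each group.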

How the data were processed

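RNA was sequenced from 4 libraries of HCT116 cells, 2 with RALY knockdown and 2 controls. The authors deposited unnormalized read counts for each gene in a separate table for every library, with exon coordinates and lengths, per the file headers. HISAT2 2.0.4, SAMtools, Subread with featureCounts, and build GRCh38 are named, without roles, per the submitters' processing notes. Neither the strand setting nor the handling of duplicate reads is given in the labels or headers. A gene and its antisense partner therefore cannot be told apart on the exon bases they share. All 58884 genes come from the deposited tables, of which 58472 were matched by ID to GENCODE release 44 for names, biotypes and canonical transcripts. Groups and replicate numbers come from the sample titles.

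Differences were tested in R 4.3.3 with edgeR 4.0.16 (filterByExpr, TMM factors, robust quasi-likelihood F test with a term for the group), with Benjamini-Hochberg adjustment over the 19686 genes tested, and the procedure was tested on simulated data. The SE of a log2 fold change is its size divided by the square root of F. The members, the 9 gene lists and the rules for named genes were chosen with earlier results of these data known. For each list up to 6 called genes with the smallest p, or up to 2 where none was called, are named, together with EDN3, MME, overlapping and neighbouring genes, and the 8 profiles most like EDN1. Of the genes this rule selects, 2 are not reported here. Alternatives were DESeq2 1.42.0 (size factors and Wald test), plain totals, 2 other filters (none, and 1 CPM in 2 libraries), the replicate block, each library left out and a correction of counts for levelling off. That correction takes 2 start positions per transcript base and caps their filling at 98%. Intervals and floors of 3 counts cover counting error only.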

Additional observations from a re-analysis of the deposited data

How the results depend on the processing

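EDN1 was called higher under every alternative, with log2 fold changes of 2.90 to 2.97 where all libraries were kept and 2.61 to 3.21 with 1 left out. EDN2 ran from 2.0 to 3.53 with 1 library left out. It lost its call without control replicate 1 (2.0), control replicate 2 (3.53) or knockdown replicate 2 (2.14), had no adjusted p from DESeq2 and was not tested at 1 CPM in 2 libraries. EDNRA ran from -0.36 to -0.24, ECE1 from -0.00 to 0.03 and ECE2 from -0.76 to -0.24 with 1 library left out, and none of these was called under any alternative. Over all genes, between 340 and 2908 were called higher and between 508 and 3351 lower with 1 library left out, against 2470 and 2578 with all 4. Both low ends came without a control (340 and 668 without replicate 1, 476 and 508 without replicate 2). The genes of the 5 pathway lists called with 1 library left out ran from 2 to 19 higher and from 4 to 15 lower, against 14 and 10. With the replicate number as a block, 20 were called higher and 17 lower, and EDN1 was at 2.94. The labels do not say that equal numbers mark a shared culture, and deviations of equally numbered libraries had a correlation of 0.24 across genes, so the samples may share only a number. With 2 libraries a group and EDN2 and ECE2 at under 2 CPM, small differences were not detectable.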
